A study of Mus musculus with 48 samples.

Results

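The genes described here are 9 genes of glucose transport and glucose production in the kidney: the glucose carriers Slc5a2, Slc5a1, Slc2a2 and Slc2a1, the glucose production genes Slc37a4, G6pc, Fbp1 and Pcx, and the glucagon receptor gene Gcgr. They were chosen by name, with earlier results of these data known. Every probe set annotated to one of the 9 symbols was taken, 21 in all, 17 from the 430A and 4 from the 430B chip. Of the 21, 13 are ordinary probe sets, and the other 8 are control probe sets for Pcx, 4 on each chip. All 9 genes passed the filter on low signal, among 12838 named genes in 18642 features tested.

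Whole-kidney RNA of mice was measured on a pair of Affymetrix chips in a factorial design of genotype, diet and sex. The mice were 10 weeks old, and C57BL/6J is the strain that 1 label gives. The study's stated interest was whether the Hyp mutation alters the kidney's response to a diet low in phosphate. RNA of 72 mice was combined into 24 pools of 3 mice, which gave 8 groups of 3 pools and 48 arrays. The Hyp mutation inactivates Phex, a gene of the X chromosome, and causes renal phosphate wasting and rickets. The Hyp males carried the mutation on their only X chromosome (Hyp/Y), and the Hyp females carried it on 1 of their X chromosomes (Hyp/+), so the female model retains a normal copy. Normal littermates of each sex were the controls. Each genotype and sex was fed either a control diet or a low phosphorus diet for 3 days, and all mice drank deionized water. Pools of different mice vary less than single animals, so the p-values refer to pools.

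In the proximal tubule, filtered glucose enters the cell with sodium through the apical carriers SGLT2 (Slc5a2), in the early segments, and SGLT1 (Slc5a1), in the late segment, where it takes up what remains. Glucose leaves the early cell through the basolateral carrier GLUT2 (Slc2a2), while GLUT1 (Slc2a1) serves late and distal segments, vessels and red blood cells. The proximal tubule also makes glucose from lactate, glutamine and glycerol: pyruvate carboxylase (Pcx) opens the pathway, fructose-bisphosphatase (Fbp1) acts in its middle, and glucose-6-phosphatase (G6pc), supplied by the glucose-6-phosphate carrier of the endoplasmic reticulum (Slc37a4), releases free glucose. Glucagon acts through its receptor (Gcgr).

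Promoter windows, from 250 bases before to 50 bases after the annotated start, are given by RefSeq (build GRCm38.p6) for 8 of the 9 genes; Slc5a2 has no entry. The windows of Slc5a1, Slc2a2 and G6pc are shown because Slc5a1 and Slc2a2 moved in opposite directions in Hyp kidneys and G6pc is the enzyme that releases glucose. They lie at chr5:33103969-33104268, chr3:28697653-28697952 and chr11:101367466-101367765, all on the plus strand, and capitals mark the motif matches named after them.
Slc5a1: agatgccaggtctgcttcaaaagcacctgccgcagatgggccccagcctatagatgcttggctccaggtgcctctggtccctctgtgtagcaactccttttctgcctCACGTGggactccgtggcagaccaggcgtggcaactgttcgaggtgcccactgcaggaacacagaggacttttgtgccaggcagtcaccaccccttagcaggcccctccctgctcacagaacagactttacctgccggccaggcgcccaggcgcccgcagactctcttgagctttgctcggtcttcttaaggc
Slc2a2: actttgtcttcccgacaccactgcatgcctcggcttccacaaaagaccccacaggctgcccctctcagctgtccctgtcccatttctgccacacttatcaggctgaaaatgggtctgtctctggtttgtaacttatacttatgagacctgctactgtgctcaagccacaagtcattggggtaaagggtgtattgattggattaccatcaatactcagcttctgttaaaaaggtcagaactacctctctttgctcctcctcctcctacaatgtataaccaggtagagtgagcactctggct
G6pc: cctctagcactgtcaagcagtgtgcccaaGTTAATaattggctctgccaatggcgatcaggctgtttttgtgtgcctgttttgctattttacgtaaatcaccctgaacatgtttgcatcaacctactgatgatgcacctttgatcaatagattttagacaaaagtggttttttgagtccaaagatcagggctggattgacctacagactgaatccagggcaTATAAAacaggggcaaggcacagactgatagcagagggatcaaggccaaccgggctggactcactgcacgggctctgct
Both strands were searched for 5 motifs: the TATA box TATAAA, the HNF1 core GTTAAT, the E-box CACGTG, the cAMP response core TGACGT and the FOXO site TGTTTAC. The Slc5a1 window holds an E-box at position -143 from the start, a motif found in 7.15% of all 32851 RefSeq windows. The G6pc window holds the HNF1 core at -221 (7.1% of windows) and a TATA box at -29 (13.62% of windows). The Slc2a2 window holds none of the 5, which says only that these letters are not in those 300 bases. Elsewhere, a window of Pcx has an E-box at -248, windows of Slc37a4 have the cAMP response core (7.51% of windows) or a TATA box, the window of Slc2a1 has a TATA box at 29 bases into the transcribed part, and the windows of Fbp1 and Gcgr have no match. No window of the 8 genes holds the letters TGTTTAC, which 3.65% of all windows do. Only exact letters were searched, so a window without a match, that of G6pc included, may hold other forms of these sites.

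Levels are the deposited signal of a probe set, in linear array units already scaled by the authors, and levels of different probe sets are not comparable. Replicate pools correlated with each other at r = 0.923 to 0.946, taken across features. Differences are limma contrasts of group means of log2 signal with their standard errors, 12 pools against 12 for a main effect, and the adjusted p-values are Benjamini-Hochberg values of limma over all 18642 features with a threshold of 0.05. Of all features, 1.95% passed for genotype, 0.772% for diet and 15.8% for sex. Of the 9 genes, 4 passed for genotype (Slc5a2, Slc2a2 and Slc37a4 lower and Slc5a1 higher in Hyp), 4 for diet (Slc5a2, Slc2a2, Pcx and Gcgr, all higher on low phosphate) and 4 for sex (Slc5a1, Slc2a1 and G6pc lower and Pcx higher in males). Their median differences were -0.24 for genotype, 0.17 for diet and -0.06 for sex, beside -0.003, 0.006 and -0.053 over all features. As the 9 genes were chosen with earlier results known, these counts and medians are a description and no independent evidence. Fbp1 passed in none of the main effects.

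Slc5a2, the high-capacity carrier that takes up most filtered glucose, was lower in Hyp kidneys and higher on the low phosphate diet. In normal males its signal was 4428, 4748 and 4936 in the pools on control diet and 5041, 5412 and 5493 on low phosphate. In Hyp males it was 2760.2, 2809 and 3283 on control diet and 3246, 4215 and 4269 on low phosphate. The male Hyp pools all lay below the male normal pools. In normal females it was 4625, 4763 and 5206 on control diet and 4966, 5599.5 and 6566 on low phosphate. In Hyp females it was 2543, 2900.5 and 2912 on control diet and 3388, 3651 and 3885 on low phosphate. Females showed the same separation, so that the highest of the 12 Hyp pools (4269) stood below the lowest of the 12 normal pools (4428). The genotype difference was -0.64 ± 0.06 on the log2 scale, 1.56-fold lower in Hyp (adjusted p = 1.06e-06). The diet difference was 0.30 ± 0.06, 1.23-fold higher (adjusted p = 0.0182), with the diets overlapping in 2 of the 4 combinations of genotype and sex. Males and females differed by 0.01 ± 0.06 (adjusted p = 0.957).

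The second Slc5a2 probe set, 1419166_at, showed the same pattern, with 12 Hyp pools at 959 to 1751 and 12 normal pools at 1800.3 to 3328. These ranges also did not overlap, and the genotype difference was -0.80 ± 0.07 (adjusted p = 2.75e-07 over every kept probe set). Its diet difference was 0.42 ± 0.07 (adjusted p = 0.00233). In the RefSeq gene table the interval of Rusf1 overlaps the end of Slc5a2, and whether either probe set also reads Rusf1 was not tested.

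Slc2a2, the basolateral carrier through which early proximal tubule cells release glucose, changed in the same directions as Slc5a2. In normal males its signal was 2404, 3198 and 3404 on control diet and 3343, 3681 and 3742 on low phosphate, and in Hyp males 2146, 2315 and 2359 on control diet and 2911, 3140.5 and 3349 on low phosphate. In normal females it was 2564, 2575 and 2846 on control diet and 2917, 3156 and 3765 on low phosphate, and in Hyp females 1978, 2009.5 and 2021.5 on control diet and 2547, 2606.5 and 2846 on low phosphate. Hyp pools lay below normal pools without overlap in 3 of the 4 combinations of diet and sex, and low phosphate pools lay above control pools in 3 of the 4 combinations of genotype and sex. Over all 24 pools the ranges overlapped for both factors. The genotype difference was -0.32 ± 0.06 (1.25-fold lower in Hyp, adjusted p = 0.00428), and the diet difference was 0.36 ± 0.06 (1.28-fold higher on low phosphate, adjusted p = 0.00321). Males were higher by 0.18 ± 0.06, which did not pass (adjusted p = 0.0505). It passed under 6 of the other settings, and with median scaling it was 0.27 (adjusted p = 0.00852).

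Slc5a1, the high-affinity carrier of the late segment, moved the other way with genotype. Its signal in normal males was 604, 689.8 and 703 on control diet and 696, 767 and 786 on low phosphate. In Hyp males it was 927.5, 949 and 1095 on control diet and 972, 1142.5 and 1204 on low phosphate. All 6 male Hyp pools stood above all 6 male normal pools. In normal females it was 1069.9, 1087 and 1291 on control diet and 867, 966 and 1146 on low phosphate. In Hyp females it was 1042, 1210.0 and 1216 on control diet and 1040.5, 1221 and 1287 on low phosphate. Female pools of the genotypes overlapped on both diets. The genotype difference over both sexes was 0.35 ± 0.06 (1.27-fold higher in Hyp, adjusted p = 0.00336), the sex difference was -0.38 ± 0.06 (1.30-fold lower in males, adjusted p = 0.000231), and the diet difference was 0.04 ± 0.06 (adjusted p = 0.933). The second Slc5a1 probe set, 1455431_at, with a signal of 154 to 366, was also lower in males (-0.43 ± 0.12, adjusted p = 0.0193), but its genotype difference was 0.08 ± 0.12 (adjusted p = 0.912), so the rise in Hyp rests on 1 of 2 probe sets.

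Slc2a1, the carrier of distal segments, vessels and red blood cells, differed by sex. Its signal was 926 to 1480.1, with a median of 1186, in the 12 female pools and 581 to 1045, with a median of 852, in the 12 male pools. The sexes overlapped over all pools and were separate in 3 of the 4 combinations of genotype and diet. The difference was -0.50 ± 0.08 (1.42-fold lower in males, adjusted p = 0.000212). The other 2 probe sets of Slc2a1 were also lower in males, by -0.26 ± 0.07 (adjusted p = 0.012) and -0.40 ± 0.11 (adjusted p = 0.0179). The genotype and diet differences of Slc2a1 were 0.08 ± 0.08 and -0.07 ± 0.08 (adjusted p = 0.852 and 0.869). For sex, 15.8% of all features passed. Of the endothelial markers 3 of 6 were lower in males and none higher, and with median scaling Tek did not pass (adjusted p = 0.23). Their summed signal was 4539 to 5285 in female and 3632 to 4678 in male pools. Of the distal tubule and collecting duct markers 3 of 7 were lower in males and none higher. With median scaling these 3, Slc12a3, Atp6v1b1 and Slc26a4, did not pass (adjusted p = 0.0557, 0.0674 and 0.353). The summed signal of the 7 was 17727 to 25279.7 in females and 14927 to 21669.6 in males. Of 7 red blood cell markers 2 had a tested feature, and neither differed by sex past the threshold. Slc4a1, among these 2, is also counted with the distal tubule and collecting duct markers. Whether the other red cell markers were absent for low signal or for their annotation was not examined. The part of these cell types in the Slc2a1 difference was not tested.

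**Figure D1:**
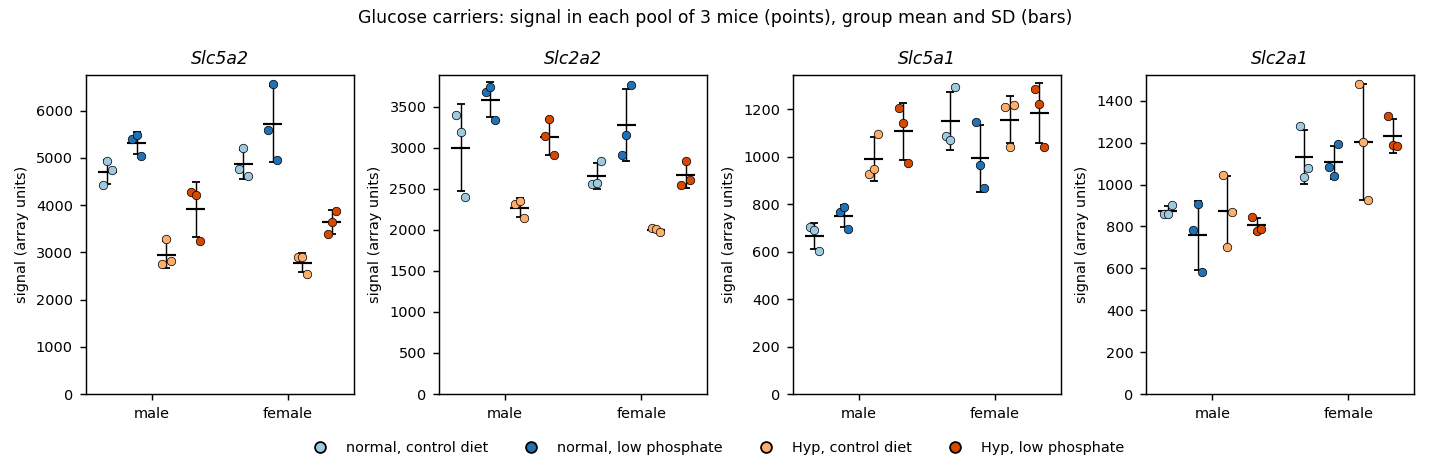
Signal of the 4 glucose carriers (vertical axis, linear array units from 0) in the 8 groups, with males on the left and females on the right of each panel; points are pools of 3 mice, horizontal bars group means and error bars the SD of 3 pools. Orange Hyp points lie below blue normal points for Slc5a2 with no overlap (4269 against 4428), and above them for Slc5a1 in males; Slc2a1 is lower in males.

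The early and late carriers were then compared directly, by taking in each pool the log2 signal of 1 gene minus that of another, so that a difference between groups is the difference of their responses. There were 9 such tests (3 gene pairs by 3 factors), each an exact two-sided permutation test over 160000 relabelings within strata, with Benjamini-Hochberg adjustment over the 9. The genotype response of Slc5a2 was below that of Slc5a1 by -0.99 ± 0.08 (95% interval -1.16 to -0.83, exact p = 1.25e-05, the smallest these relabelings can give, adjusted p = 3.75e-05). That of Slc2a2 was below that of Slc5a1 by -0.67 ± 0.08 (interval -0.83 to -0.51, exact test, adjusted p = 3.75e-05). The apical and the basolateral early carrier both differed from the late carrier in their genotype response. Both sizes rest on the brighter Slc5a1 probe set. With its other probe set, whose genotype difference was smaller, they would be smaller, and the intervals do not cover this.

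The diet responses of Slc5a2 and Slc2a2 exceeded that of Slc5a1 by 0.26 ± 0.08 (exact test, adjusted p = 0.00473) and 0.32 ± 0.08 (exact test, adjusted p = 0.000113). For sex the same pairs differed by 0.38 ± 0.08 (exact test, adjusted p = 0.0006) and 0.55 ± 0.08 (exact test, adjusted p = 3.75e-05), with Slc5a1 lower in males. Between the early carriers, the Slc5a2 probe set fell more than that of Slc2a2 in Hyp, by -0.32 ± 0.08 (exact test, adjusted p = 0.0006). These tests measure the spread of pools and not how probe sets of the same gene differ in response. The genotype differences of the other Slc5a2 and Slc5a1 probe sets, given above, were not of the same size, so the gap may partly lie in the probe sets. Their diet responses differed by -0.06 ± 0.08 (interval -0.23 to 0.10, exact test, adjusted p = 0.403), and this interval does not show that they respond alike. Their sex responses differed by -0.17 ± 0.08 (exact test, adjusted p = 0.0374), a call that ended without any 1 of 12 pools.

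Other genes of the early and late proximal tubule give the setting; both lists were chosen with earlier results of these data known, so their directions are no independent evidence. Of 14 genes of the early segments, all measured, 5 fell and 1 rose in Hyp, with a median difference of -0.19 beside -0.003 over all features. The falls included Slc34a3 and Slc34a1, the phosphate carriers whose loss Hyp is known for (-0.61 ± 0.08 and -0.30 ± 0.06, adjusted p = 0.000147 and 0.00741), the sodium bicarbonate carrier Slc4a4 (-0.28 ± 0.05, adjusted p = 0.00179) and the organic anion carrier Slc22a6 (-0.23 ± 0.05, adjusted p = 0.0107). Slc22a8, another organic anion carrier, rose by 0.31 ± 0.06 (adjusted p = 0.0076). When each array was scaled on its median instead, 2 of the 14 fell, and Slc34a1 and Slc22a6 did not pass (adjusted p = 0.0654 and 0.061).

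Of 14 genes of the late segment, all measured, 4 rose in Hyp and none fell, with a median of 0.22. They were the amino acid carrier Slc7a12 (0.79 ± 0.12, adjusted p = 0.00037), the organic anion carriers Slc22a19 (0.39 ± 0.06, adjusted p = 0.00055) and Slc22a13 (0.27 ± 0.05, adjusted p = 0.0068), and the oxysterol hydroxylase Cyp7b1 (0.68 ± 0.11, adjusted p = 0.00101). Of 5 general proximal tubule markers, of which Slc34a1 and Lrp2 are also in the early list, 1 was lower in Hyp (Slc34a1) and none higher, with a median of -0.06. Their summed signal was 62829 to 88196 in Hyp and 65336 to 87651 in normal pools. Of 7 distal tubule and collecting duct markers 3 rose and 1 fell in Hyp, with a median of 0.25, led by the salt carrier Slc12a3 (0.50 ± 0.05, adjusted p = 1.35e-06), and their summed signal was 15864 to 25279.7 in Hyp and 14927 to 24733 in normal pools. Of 5 thick ascending limb markers 1 rose, Kcnj1 (0.24 ± 0.06, adjusted p = 0.0435), a call that ended without any 1 of 22 pools. The part of these segments in the list counts was not tested. In whole kidney, fewer cells of a segment and less RNA per cell cannot be told apart.

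On the low phosphate diet 2 genes of the early list rose and 1 fell, and none of the late list passed (medians 0.14 and 0.01). The place of each listed gene along the tubule was taken as given and was not tested. The cationic amino acid carrier subunit Slc7a7 rose by 0.34 ± 0.06 (adjusted p = 0.00321) and the glutamate carrier Slc1a1 by 0.23 ± 0.05 (adjusted p = 0.0347), while Slc22a6 fell by -0.23 ± 0.05 (adjusted p = 0.027). The Slc1a1 call ended without any 1 of 17 pools and the Slc22a6 call without any 1 of 12. For the late genes, other settings gave 0 or 1 fall. Sex moved the late list most, with 7 of 14 higher and 5 lower in males, from the acyl-CoA synthetase Acsm3 (7.58 ± 0.26, adjusted p = 3.84e-15) to Slc7a12 (-4.02 ± 0.12, adjusted p = 4.44e-16), so the lower Slc5a1 in males had no common direction with its list. Of the early list 3 were higher and 4 lower in males, or 2 lower with median scaling.

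**Figure D2:**
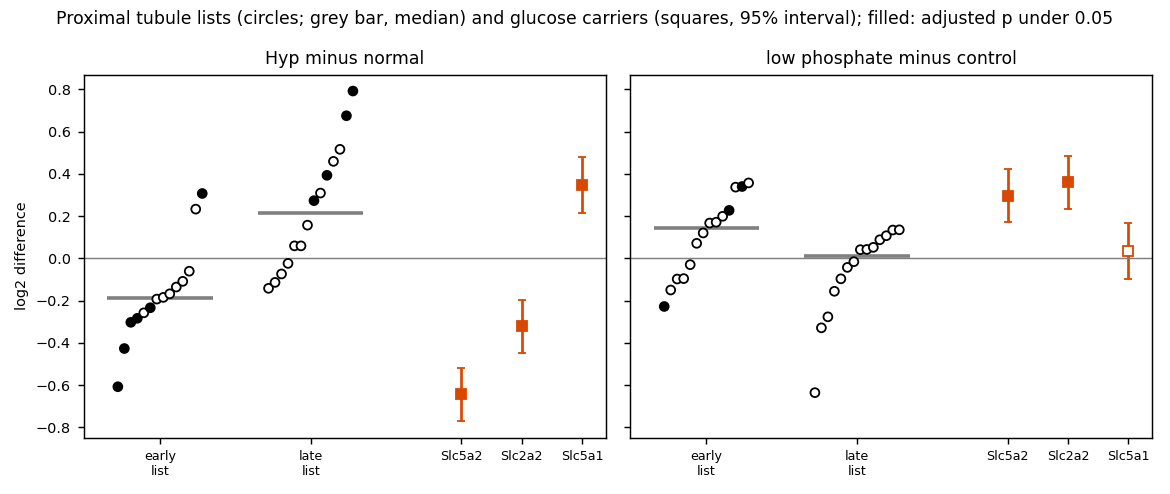
Log2 difference (vertical axis) for genotype on the left and diet on the right; circles are the 14 early and the 14 late proximal tubule genes with grey bars at their medians, squares are the 3 carriers with 95% intervals, and filled symbols passed the adjusted p threshold of 0.05. For genotype Slc5a2 (-0.64) and Slc2a2 (-0.32) lie on the side of the early median (-0.19) and Slc5a1 (0.35) on that of the late median (0.22).

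Among the glucose production genes, Slc37a4, which carries glucose-6-phosphate to the phosphatase, was lower in Hyp. Its 12 Hyp pools lay at 2694 to 4884, with a median of 4163, and its 12 normal pools at 3479 to 5644.5, with a median of 5017. The ranges overlapped, and the genotypes were separate in 2 of the 4 combinations of diet and sex. The difference was -0.28 ± 0.07 (1.21-fold lower, adjusted p = 0.033). This call was marginal: it ended without any 1 of 12 pools (adjusted p = 0.0523 to 0.0735), and when each array was scaled on its median (adjusted p = 0.0961) or the filter on low signal was left out (adjusted p = 0.0736). Those 12 pools were Hyp female low phosphate 1, Hyp male control 2, Hyp male low phosphate 1 and 3, normal female control 2 and 3, normal female low phosphate 2 and 3, normal male control 1 and 3, and normal male low phosphate 1 and 2. Diet and sex differences of Slc37a4 were 0.17 ± 0.07 and 0.19 ± 0.07 (adjusted p = 0.399 and 0.0676), and with median scaling the sex difference was 0.28 (adjusted p = 0.012).

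G6pc, whose product releases free glucose, differed by sex. Its signal was 5518 to 12337.5, with a median of 8366.5, in female pools and 4885 to 9949.9, with a median of 6787, in male pools. The ranges overlapped widely, and the sexes were separate in 1 of the 4 combinations of genotype and diet. The difference was -0.31 ± 0.09 (1.24-fold lower in males, adjusted p = 0.0236), and with median scaling it was -0.21 (adjusted p = 0.243). For genotype G6pc was 6849 to 12337.5 in Hyp and 4885 to 9167 in normal pools, a difference of 0.31 ± 0.09 that did not pass (adjusted p = 0.1). It passed with quantile normalization (0.33, adjusted p = 0.0395), with trended robust variances (adjusted p = 0.0441) and with a block on the series number (adjusted p = 0.0112). It also passed in 2 of the 24 omissions of a single pool. The diet difference was -0.22 ± 0.09 (adjusted p = 0.427). The point estimates of G6pc and of its partner Slc37a4 had opposite signs in all 3 main effects; the difference between these genes was not tested.

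Fbp1 varied little. It ranged from 16871 to 22301 in Hyp and from 19319.7 to 22645 in normal pools, and the differences were -0.13 ± 0.05 for genotype, -0.07 ± 0.05 for diet and -0.06 ± 0.05 for sex (adjusted p = 0.347, 0.764 and 0.5). The 95% intervals were -0.24 to -0.02, -0.19 to 0.04 and -0.18 to 0.05, so a change of the size seen for Slc5a2 in Hyp lies outside the first. A high signal can compress differences on an array, and whether it does so here was not tested.

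Pcx, which turns pyruvate into oxaloacetate, was higher in males and on low phosphate. Its signal in females was 2326.5, 2405 and 2612 in normal pools on control diet, 2988, 3016 and 3261 in normal pools on low phosphate, 1519.8, 1795 and 2301 in Hyp pools on control diet and 2459.8, 2580.3 and 2874 in Hyp pools on low phosphate. In males it was 2873, 2932 and 3286, then 3271, 3960.1 and 4124.5, then 2735, 2944 and 3207, and then 2958, 3061 and 3288 in the same order of groups. Male pools lay above female pools in each of the 4 combinations of genotype and diet, although the ranges over all pools overlapped. The sex difference was 0.38 ± 0.06 (1.30-fold higher in males, adjusted p = 0.000259) and the diet difference 0.31 ± 0.06 (1.24-fold higher, adjusted p = 0.0214). The diet call ended without pool 1 of the Hyp males on low phosphate (0.30, adjusted p = 0.0522) or pool 3 of the normal males on low phosphate (0.29, adjusted p = 0.0524). The genotype difference, -0.24 ± 0.06, did not pass (adjusted p = 0.0667).

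The 8 control probe sets for Pcx, which read the same pools on both chips and are no further replicates, gave the same directions. All 8 were higher in males, by 0.48 to 0.65, each past the threshold. All 8 were also higher on low phosphate, by 0.28 to 0.49, and 6 of 8 passed. Their genotype differences ran from -0.34 to -0.18, and 2 of 8 passed.

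Gcgr, the glucagon receptor, had a low signal and the largest diet difference of the 9 genes. In normal kidneys its signal was 207, 226 and 237.5 in females and 115, 137 and 231 in males on control diet, and 343, 371.5 and 381.5 in females and 226.5, 263 and 373 in males on low phosphate. In Hyp kidneys it was 117, 127 and 164 in females and 129.6, 175 and 205 in males on control diet, and 136, 295 and 329 in females and 217, 239 and 271 in males on low phosphate. The diets were separate in normal females and in Hyp males and overlapped in the other groups. The difference was 0.73 ± 0.14 (1.66-fold higher on low phosphate, adjusted p = 0.0104). Its signal exceeded the median of the array on 11 of 12 low phosphate arrays and 5 of 12 control arrays, so on control diet it was often in the dim part of the array. The genotype and sex differences were -0.37 ± 0.14 and -0.14 ± 0.14 (adjusted p = 0.291 and 0.573).

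**Figure D3:**
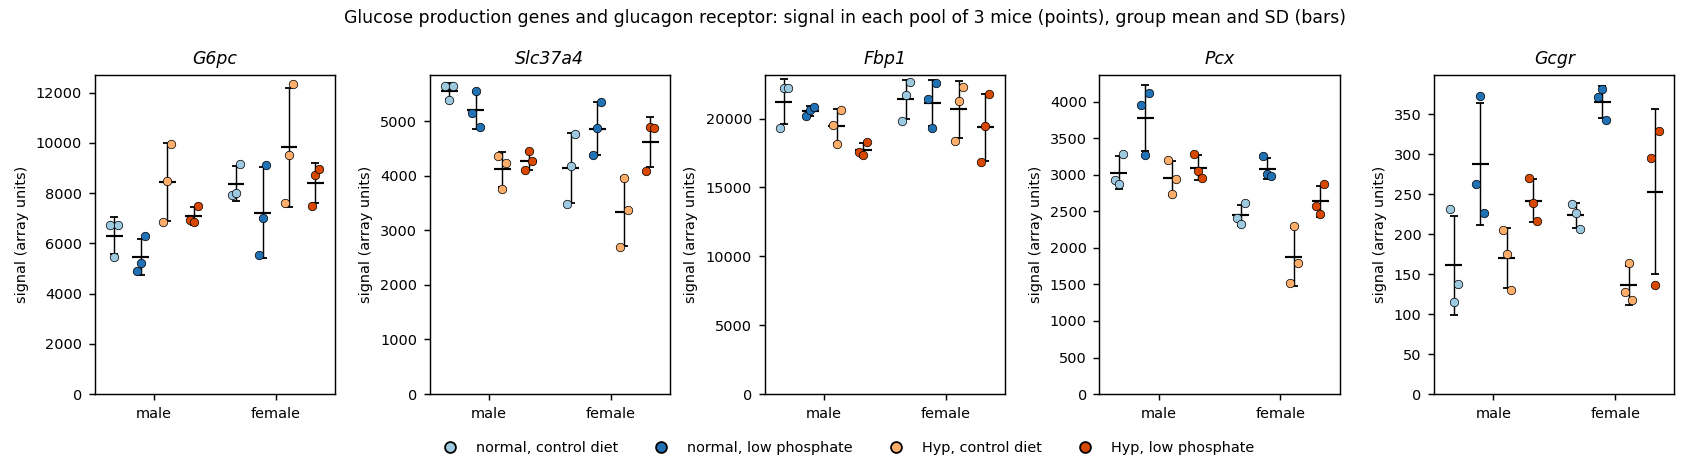
Signal of the 4 glucose production genes and Gcgr (vertical axis, linear array units from 0) in the 8 groups, with males on the left and females on the right of each panel; points are pools of 3 mice, horizontal bars group means and error bars the SD of 3 pools. Pcx is higher in males, Gcgr is higher on low phosphate (dark points), and Fbp1 stays between 16871 and 22645.

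Slc2a2, G6pc, Slc37a4, Fbp1, Pcx and Gcgr are also expressed in liver, so liver markers were read alongside. Of 14 such markers 9 had no tested feature, among them Ahsg, Serpina1a, Cps1, Tat and Fgb. Whether they were absent for low signal or for their annotation was not examined. The summed signal of the 5 with a tested feature was 13010 to 32755 in Hyp and 2527 to 9592 in normal pools. Over all pools most of this sum was transthyretin (Ttr), which kidney also expresses and which rose by 3.07 ± 0.09 in Hyp (adjusted p = 2.17e-15). Apob also rose, by 0.48 ± 0.12 (adjusted p = 0.0404), a call that ended without any 1 of 15 pools and without the filter on low signal (adjusted p = 0.101). By sex 2 of the 5 markers were higher and 2 lower in males, where 15.8% of all features passed. With median scaling the 2 lower ones, Apoa2 and albumin, did not pass (adjusted p = 0.111 and 0.0873). Albumin (Alb), with a mean signal of 329, differed by 0.28 ± 0.16 for genotype (adjusted p = 0.57) and fell by -0.78 ± 0.16 on low phosphate (adjusted p = 0.0134). Of 5 thick ascending limb markers, a site of Gcgr, none passed for diet, and their summed signal was 43344 to 55966 on control diet and 42088 to 53251 on low phosphate. The part of liver RNA or of this segment in the differences of the 9 genes was not tested.

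**Figure D4:**
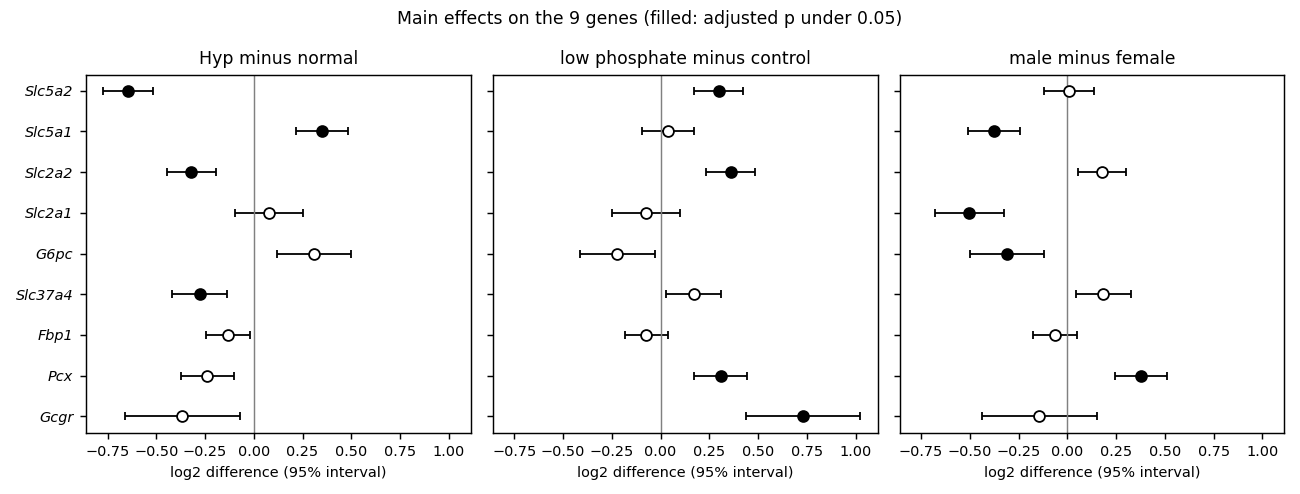
Log2 differences (horizontal axis) of the 9 genes for genotype, diet and sex with 95% intervals of the limma fit; filled points passed the adjusted p threshold of 0.05 and open points did not. In each panel 4 of 9 points are filled, and Slc5a2 and Slc5a1 lie on opposite sides of 0 for genotype.

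No interaction passed for any of the 9 genes. Over all features 0.0161% passed for genotype by diet, 0.0805% for genotype by sex, and 0% for diet by sex and for the interaction of all 3 factors. At an unadjusted limma p under 0.05 there were 0, 2, 1 and 0 of the 9 genes in these interactions. Over all 18642 features there were 1003, 1195, 1019 and 724 in the same order. The smallest p-value among the 9 genes was that of the genotype by sex interaction of Slc5a1, 0.43 ± 0.13 (adjusted p = 0.505). The Hyp difference was 0.57 ± 0.09 in males (adjusted p = 0.00131) and 0.13 ± 0.09 in females (adjusted p = 0.725). The effects in the sexes are not shown to differ. For Gcgr that interaction was 0.63 ± 0.28 (adjusted p = 0.766).

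Within a single diet, 2 of 9 genes passed for genotype on control diet (0.665% of features) and 2 of 9 on low phosphate (0.778%). Slc5a2 was lower in Hyp on both, by -0.74 ± 0.09 (adjusted p = 8.11e-05) and -0.55 ± 0.09 (adjusted p = 0.00143). Slc2a2 passed on control diet (-0.40 ± 0.09, adjusted p = 0.0272) and had -0.24 ± 0.09 on low phosphate (adjusted p = 0.291). Slc5a1 passed on low phosphate (0.41 ± 0.09, adjusted p = 0.0335) and had 0.29 ± 0.09 on control diet (adjusted p = 0.237). The Slc2a2 call ended without any 1 of 11 pools and the Slc5a1 call without any 1 of 9. Both also ended with median scaling (adjusted p = 0.165 and 0.0883) and without the filter on low signal (adjusted p = 0.0637 and 0.0785).

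Within a single sex, 2 of 9 genes passed for genotype in males (1.07% of features), Slc5a2 and Slc5a1, and 1 of 9 in females (0.692%), Slc5a2. The Slc5a2 difference was -0.56 ± 0.09 in males (adjusted p = 0.000798) and -0.72 ± 0.09 in females (adjusted p = 7.36e-05), in hemizygous and heterozygous Hyp mice respectively, and its genotype by sex interaction was 0.16 ± 0.12 (adjusted p = 0.891). For diet, none of the 9 passed in normal mice (0.467% of features). At an unadjusted limma p under 0.05 there were 4 of 9 in normal mice, beside 1671 of 18642 features. In Hyp mice 1 of 9 passed for diet (0.15%). That 1 was Slc2a2, higher by 0.44 ± 0.09 (adjusted p = 0.042), a call that ended without any 1 of 20 pools, with median scaling (adjusted p = 0.224) and without the filter (adjusted p = 0.0917). Slc2a2 differed by 0.28 ± 0.09 in normal mice (adjusted p = 0.232), and its genotype by diet interaction was 0.15 ± 0.12 (adjusted p = 0.941).

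The wider glucose pathway was read in lists chosen with earlier results known. Among 22 measured genes of gluconeogenesis and its supply, 2 fell and none rose in Hyp (median -0.03). They were Gpd1, the glycerol-3-phosphate dehydrogenase, by -0.50 ± 0.07 (adjusted p = 0.00026), and lactate dehydrogenase Ldha, by -0.20 ± 0.05 (adjusted p = 0.0378, lost without any 1 of 16 pools). On low phosphate 2 rose and 3 fell (median -0.05). The falls were Pck1, the cytosolic phosphoenolpyruvate carboxykinase (-0.74 ± 0.09, adjusted p = 7.14e-05), the glutamine carrier Slc38a3 (-0.66 ± 0.08, adjusted p = 0.000137) and glutamate dehydrogenase Glud1 (-0.47 ± 0.06, adjusted p = 0.000224). The rises were Gpd1 (0.43 ± 0.07, adjusted p = 0.00321) and Ldha (0.29 ± 0.05, adjusted p = 0.00328, or 0.0889 with median scaling), so Pcx rose on the diet on which Pck1, the next enzyme of the pathway, fell. By sex 5 were higher and 5 lower in males, among them the lactate carrier Slc5a8 (1.35 ± 0.06, adjusted p = 1.17e-12), the muscle-type fructose-bisphosphatase Fbp2 (-0.94 ± 0.08, adjusted p = 2.69e-08) and Pck1 (-0.47 ± 0.09, adjusted p = 0.000536).

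Of 15 measured glycolysis genes, 2 rose and 1 fell in Hyp and none passed for diet. The rises were the platelet-type phosphofructokinase Pfkp (0.34 ± 0.05, adjusted p = 0.00014) and aldolase C, Aldoc (0.45 ± 0.06, adjusted p = 0.00015), and the fall was the pyruvate dehydrogenase kinase Pdk2 (-0.31 ± 0.07, adjusted p = 0.0227). In males 5 of the 15 were lower and none higher, or 3 lower with median scaling, led by Aldoc (-0.43 ± 0.06) and Pfkp (-0.32 ± 0.05, adjusted p = 4.01e-05 and 4.95e-05). Of 8 measured genes of glycogen and fructose metabolism, 1 fell in Hyp, the liver-type glycogen synthase Gys2 (-0.54 ± 0.13, adjusted p = 0.0259, lost without any 1 of 9 pools), and none passed for diet.

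Of 15 measured other glucose and sugar carriers, none passed for genotype or diet. By sex 1 was higher in males, Slc5a8, which the gluconeogenesis list also holds, and 5 were lower, or 3 with median scaling. The lower ones were led by the mannose carrier Slc5a10 (-0.54 ± 0.07, adjusted p = 6.78e-06) and the inositol carrier Slc5a3 (-0.36 ± 0.07, adjusted p = 0.00163), and they included the fructose carrier Slc2a5 (-0.41 ± 0.09, adjusted p = 0.0021). Of 20 measured genes of hormone signalling and transcription factors of glucose production, none passed for genotype. On low phosphate 1 fell, the fatty acid sensor Ppara (-0.46 ± 0.11, adjusted p = 0.0453), a call that ended without any 1 of 20 pools. In males 7 were lower and 2 higher, among them the kinase Sgk1 (-1.08 ± 0.14, adjusted p = 7.87e-06), Cebpa (-0.46 ± 0.06, adjusted p = 5.15e-06) and the bile acid receptor Nr1h4 (0.76 ± 0.08, adjusted p = 2.28e-07).

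The named genes whose log2 signal followed a member most closely over the 24 pools are given as a description; the pools share their groups and arrays. Slc5a2 was followed most closely by Pdzk1 (r = 0.912), which encodes a scaffold of apical carriers, then Cpeb3 (0.849) and Nup210 (0.844). Slc2a2 was followed by Cyp2d12 (0.859), Kl, the co-receptor of the phosphate hormone FGF23 (0.84), and Timm17a (0.808). Slc5a1 was followed by Bambi (0.858), the collagen gene Col5a2 (0.857) and 9030619P08Rik (0.855). G6pc was followed by S100a10 (0.85), Tgoln1 (0.814) and Ddit4l (0.802), and Gcgr by Nt5c2 (0.801), Acox2 (0.8) and Acp2 (0.781). Among the 9 genes themselves, Slc5a2 correlated at 0.762 with Slc2a2 and at -0.405 with Slc5a1, and G6pc correlated at -0.618 with Slc5a2, -0.63 with Slc2a2 and 0.541 with Slc5a1.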

How the data were processed

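Each array's deposited table gives a linear signal intensity for every probe set, made by the authors with GCOS 1.2 (submitters' processing notes); the algorithm behind it is not given in the sources used here. A trimmed mean of the 100 probe sets common to both chips was 1200 on every array. Arrays give no read depth; their number limits the precision. Symbols came from the platform annotation, updated by Entrez identifier. Probe sets brighter than the array's median on 3 or more of a chip's 24 arrays were kept, and the one brightest on average stood for its gene. The log2 signals, with values below 1 set to 1, were fitted as 8 group means with limma 3.58.1 in R 4.3.3, each chip separately, a procedure tested on simulated data. Responses of pairs of carriers used exact permutation tests (numpy 2.4.6). Alternatives were median and quantile scaling, an added 50 signal units, other filters, every kept probe set, adjustment within each chip, a block on the series number of the labels, trended robust variances, and leaving out each pool. Named were all 9 genes, up to 5 genes past the threshold per list and effect (smallest adjusted p), and the 3 genes most like each of 5 members. Members and lists were chosen with earlier results of these data known.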

Additional observations from a re-analysis of the deposited data

How the results depend on the processing

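The 9 differences between carrier responses kept their direction and their side of the threshold under the other settings tried, and also when each pool was left out, except the sex response of Slc5a2 against Slc2a2, which ended in 12 of 24 omissions. Without 1 pool that pair differed by -0.373 to -0.283 for genotype, -0.098 to -0.013 for diet and -0.219 to -0.134 for sex. The settings tried for the carrier pairs included the other probe sets of Slc5a2 and Slc5a1. No called difference of the 9 genes changed sign. Calls over all features moved as follows. Without the filter, 94 features passed for diet (144 with it), 47 for diet in normal mice, 83 for genotype in females and 1 for diet by sex. With trended robust variances, 8 passed for genotype by diet, 28 for genotype by sex, 3 for diet by sex and 47 for diet in Hyp mice. With every kept probe set, 47 passed for diet in Hyp mice. With median scaling, 57 passed for diet in normal mice. With 50 units added, 1 passed for diet by sex. Without 1 pool, 3 to 5 passed for genotype by diet, 13 to 24 for genotype by sex, 0 to 1 for diet by sex, 0 to 1 for the interaction of all 3 factors, 52 to 95 for diet in normal mice and 18 to 24 for diet in Hyp mice. The share of sex calls higher in males was 38.3%, 63.6% with median scaling and 45.2% with quantile normalization; the cause was not tested. The series numbers of the labels were not taken as pairs, since none of 84 same-numbered pairs correlated above 0.1. These correlations are of what is left after the group means, and their mean was 0.03. The mean for different numbers, -0.015, follows from it and is no comparison, as what is left sums to 0 in each group. On average 22 of 24 pools correlated best with their own number, so pools of 1 number shared some variation that the main fit does not model. Each number of the labels holds 1 pool of each of the 8 groups, and what it stands for is not given. With the replicate block, 438 features passed for genotype, 185 for diet and 3250 for sex; G6pc then passed for genotype (adjusted p = 0.0112), Slc2a2 and Slc37a4 for sex (0.049 and 0.0423) and Slc5a2 for diet in Hyp mice (0.0322). Pcx passed for genotype with adjustment within each chip (0.0384) and with trended robust variances (0.0251), and its diet call ended without the filter (0.0546). Without the filter Ldha, Gys2 and Pdk2 also ended for genotype (0.0648, 0.0707 and 0.0533) and Ppara, Slc1a1 and Slc22a6 for diet (0.118, 0.0686 and 0.0516). With median scaling Ldha ended for genotype (0.293) and Slc1a1 for diet (0.259). Low signal limits Gcgr and the second Slc5a1 probe set most.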
